A study of Mus musculus with 2 samples.

Results

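The genes described here encode the subunits of the respiratory chain and of ATP synthase, in classically activated bone-marrow-derived macrophages of Ninj1 knockout and Ninj1 wild-type mice. They were chosen by symbol: nuclear genes named Ndufa, Ndufb, Ndufc, Ndufs, Ndufv, Uqcr, Cox4 to Cox8 or Atp5, the genes Sdha to Sdhd and Cyc1, and the genes encoded on mitochondrial DNA. The rule took 96 of the 17270 genes in the table, 83 of them nuclear and 13 mitochondrial. It also took the pseudogene rows Atp5c1-ps and Uqcrh-ps1 and the ATP synthase-associated Atp5s, and its prefix puts Ndufa4, known today as a complex IV subunit, into complex I. The knockout group was Ninj1-/- and the wild-type group Ninj1+/+, where Ninj1 encodes ninjurin 1, a membrane protein that cells use in adhesion and in rupturing their membrane when they lyse. Both groups came from marrow of mice aged 6 weeks, were differentiated with M-CSF for 7 days, and then received lipopolysaccharide (LPS) at 500 ng/ml with IFNγ at 20 ng/ml. Each genotype is 1 registered sample with 2 columns in the table, and no label ties a column to a mouse or a culture, so every p-value below measures only the spread between columns, which may be technical.

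The respiratory chain passes electrons from NADH (complex I) and succinate (complex II) through coenzyme Q, complex III and cytochrome c to oxygen at complex IV, and ATP synthase (complex V) uses the resulting proton gradient. Complexes I, III, IV and V are assembled from subunits encoded in the nucleus and a few encoded on mitochondrial DNA, whereas complex II is entirely nuclear. Macrophages activated with LPS and IFNγ are known to lean on glycolysis, and nitric oxide made by such cells is known to inhibit complex IV.

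The columns held 62684262 and 51859103 reads in the knockout and 46798381 and 53928636 reads in wild type. Ninj1 had 3519 and 4086 normalized counts in the knockout columns, against 28850 and 31158 in the wild-type columns, a log2 ratio of -2.98 (SE 0.08, adjusted p = 1.8e-11). All 8 macrophage markers were present, with means over the 4 columns of 5323 to 282430 normalized counts, and 0 of them rose and 2 fell. Of the 6 classical activation markers 2 rose and 0 fell. Among all genes tested, 1.67% were called higher and 1.24% lower. The 8 stromal markers summed to 456 and 366 in the knockout and 693 and 778 in wild type, and 2 of them fell, whereas the 5 dendritic cell markers summed to 9171 and 8702 in the knockout and 6585 and 6151 in wild type, 1 of them rising and Siglech at 0. The stromal sums lie under the level of the lowest macrophage marker in every column, and the part of other cell types in the results below was not tested. In bulk RNA, fewer cells of a type and less RNA per cell cannot be told apart.

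Some mitochondrial genes share sequence with nuclear DNA, and the part of this in their measured levels was not tested. In mm10, chr1:24611535-24616197 holds 7 unprocessed pseudogenes that together copy the mitochondrial genome from inside COX1 to inside ND4, in the same gene order. The copies of COX2, ATP6, COX3 and ND4L were identical to the mitochondrial gene over all 681, 678, 783 and 294 aligned bases, in that order of genes. The copy of ND3, Gm28438, differed from it at 1 of 345 aligned bases, a T3C change counted from the first base of ND3. The first 60 bases of both are printed here because they show how little there is for a read to tell the loci apart. The printed bases of ND3 lie at chrM:9459-9518 on the plus strand and those of its copy at chr1:24613060-24613119 on the minus strand. Both are written 5′ to 3′ from GENCODE transcripts, and the capital marks the base that differs.
ND3: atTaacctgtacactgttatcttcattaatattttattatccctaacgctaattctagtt
Gm28438: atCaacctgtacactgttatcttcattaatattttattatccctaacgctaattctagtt
ATP8 has no annotated copy of its own, but it lies between COX2 and ATP6 on mitochondrial DNA, and the chromosome 1 block keeps a stretch of 233 bases between the copies of those genes, where mitochondrial DNA has 230. COX1 was copied over 31.8% of its length at 98.8% identity and ND4 over 63.6% without a difference. CYTB, ND1 and ND6 shared no 50-base window with a transcript of another locus. None of the 7 pseudogenes is a row of the table.

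The 13 mitochondrial genes divided into sets of very different level. The 7 genes not wholly inside the copied stretch, COX1, CYTB, ND1, ND2, ND4, ND5 and ND6, averaged 73351 (ND4) to 784409 (COX1) normalized counts per kb of transcript, with COX1 and ND4 reaching into the stretch and sharing 51.1% and 62.2% of their 50-base windows with another locus. The 6 genes wholly inside it, COX2, COX3, ATP6, ATP8, ND3 and ND4L, averaged 230 (ND4L) to 915 (ND3) normalized counts per kb. ATP8 is counted among them by its position only, since no copy of it was aligned and it shared no 50-base window with another locus. All 13 are made from polycistronic transcripts of the same circular genome. The 6 inside genes together took 0.00189% and 0.00262% of named reads in the knockout columns, and 0.00285% and 0.00243% in the wild-type columns, while all 13 took 2.89% and 2.85% in the knockout and 2.83% and 2.44% in wild type. The levels of the 6 are therefore given as deposited values of uncertain meaning, since what the counting did with reads that fit both loci is not given in the sources used here.

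**Figure D1:**
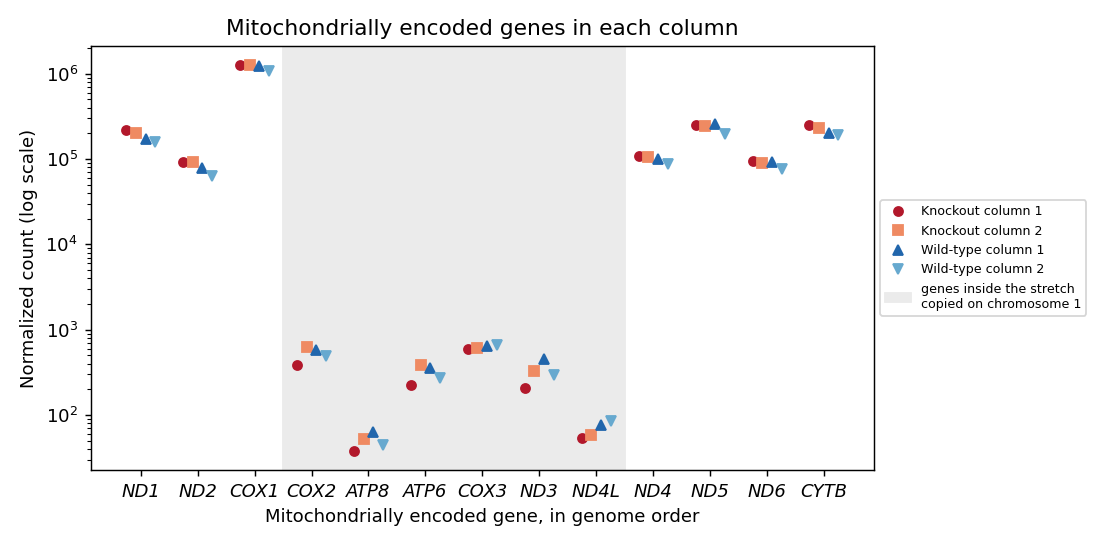
Normalized count on a log scale (y axis) of the 13 mitochondrially encoded genes in genome order (x axis), 1 point per column, with knockout columns left of wild-type columns and grey shading over the genes inside the stretch copied on chromosome 1. The 6 shaded genes, ATP8 among them by position only, lie below 1000 normalized counts in every column. The lowest value among the 7 others is 64141, for ND2 in wild-type column 2.

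Of the 13 mitochondrial genes, ND2 alone passed the test, as the higher gene in the knockout, and 0 fell. Over all 12872 genes tested, 1.67% were called higher and 1.24% lower. ND2 (mm10 chromosome M, 3914 to 4951) encodes a core membrane subunit of complex I and had 93628 and 92802 normalized counts in the knockout columns, against 79433 and 64141 in the wild-type columns. The groups did not overlap, and the log2 ratio was 0.39 (SE 0.09, adjusted p = 0.0419), a fold of 1.31. The call was lost without wild-type column 2 (log2 ratio 0.23, adjusted p = 0.0935), without either knockout column (adjusted p = 0.309 for column 1 and 0.158 for column 2), and after each column's trend on GC content and length was taken out (log2 ratio 0.14, adjusted p = 0.46). It was also lost without a filter on low values (adjusted p = 0.0688) and with columns scaled to the sums of all genes but the mitochondrial ones (adjusted p = 0.0592), and it held without wild-type column 1. The median GC content of the mitochondrial genes was 37.1%, against 50.6% over all genes tested.

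The other complex I genes not wholly inside the copied stretch had ratios above 0 and did not pass. ND1, another core membrane subunit, had 218262 and 200546 in the knockout columns and 172207 and 157279 in the wild-type columns (log2 ratio 0.35, SE 0.09, adjusted p = 0.0544). Its groups did not overlap, and edgeR called it higher (adjusted p = 0.0352). ND4 had 109405 and 106188 in the knockout, against 100246 and 88473 in wild type (log2 ratio 0.19, adjusted p = 0.212). ND5 had 253841 and 246947 in the knockout, against 255070 and 196163 in wild type (log2 ratio 0.16, adjusted p = 0.46). ND6, the only one of the 13 encoded on the other strand, had 95397 and 89559 in the knockout and 92147 and 77468 in wild type (log2 ratio 0.13, adjusted p = 0.454). For ND5 the groups overlapped, because wild-type column 1 was the highest of the 4. ND5 and ND6 overlap on opposite strands, and whether the counting used strand is not given, so reads of the overlap may be shared between them.

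CYTB encodes cytochrome b, the mitochondrial subunit of complex III. It had 253339 and 232087 normalized counts in the knockout, against 201261 and 189643 in wild type (log2 ratio 0.31, SE 0.09, adjusted p = 0.0812), with no overlap, and edgeR called it higher (adjusted p = 0.0449). COX1, the catalytic subunit of complex IV, was the most abundant of all 96 genes per kb. It had 1260047 and 1259394 in the knockout columns, against 1243684 and 1084525 in the wild-type columns (log2 ratio 0.12, SE 0.13, adjusted p = 0.665). In COX1 the knockout columns and wild-type column 1 lay close together and wild-type column 2 stood below them.

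Wild-type column 2 was the lowest of the 4 columns in 7 of the 7 genes not wholly inside the copied stretch, against 21.4% of all genes tested. Their median log2 ratio was 0.19, and over all 13 genes it was 0.12, which turned to -0.03 without wild-type column 2 and to -0.16 after correction for GC content and length. The 6 genes inside the stretch had ratios below 0, with a median of -0.19, and none passed. COX3 had 588 and 606 in the knockout, against 649 and 666 in wild type (log2 ratio -0.14, adjusted p = 0.571). ND3 had 206 and 325 in the knockout, against 451 and 293 in wild type (log2 ratio -0.49, adjusted p = 0.269). COX2 had 383 and 620 in the knockout, against 574 and 495 in wild type (log2 ratio -0.13, adjusted p = 0.751). Knockout column 1 was the lowest column in 6 of these 6 genes, against 25.6% of all genes tested. ATP6 had 227 and 390 in the knockout, against 352 and 273 in wild type (log2 ratio -0.06, adjusted p = 0.917). ATP8 had 37.8 and 52.9 in the knockout, against 63.3 and 43.8 in wild type (log2 ratio -0.23, adjusted p = 0.804). ND4L had 54.2 and 57.4 in the knockout, against 76.3 and 84.9 in wild type (log2 ratio -0.52, adjusted p = 0.421). Of the 6, only COX3 and ND4L had both knockout columns below both wild-type columns, as did 25.6% of all genes tested. ATP8 overlaps ATP6, and ND4L overlaps ND4, so part of their reads cannot be assigned to 1 gene.

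Of the 83 nuclear genes, 79 reached 20 reads in a column and were tested, and Sdhd, Cox4i2, Cox6b2 and Ndufa4l2 did not. By limma 0 of the 79 were called higher and 0 lower. At an unadjusted p under 0.05, 20 were higher (25.3%) and 0 lower, where 10.3% and 9.45% of all genes tested were higher and lower at that level. edgeR's quasi-likelihood test called 0, where it called 204 genes higher and 175 lower in all. DESeq2 called Atp5c1, Cox7b and Atp5j higher, among 341 higher of the 8380 genes to which it gave an adjusted p. In all, 68 of the 79 log2 ratios (86.1%) were above 0, against 49.3% of all genes tested, and their median was 0.13, against -0.0034 over all genes tested. Both knockout columns lay above both wild-type columns in 40 of the 79 (50.6%), against 25.5% of all genes, and below them in 3 (3.80%), against 25.6% of all genes. These genes share columns and are not replicates of the genotype, so the counts describe the list and carry no test.

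**Figure D2:**
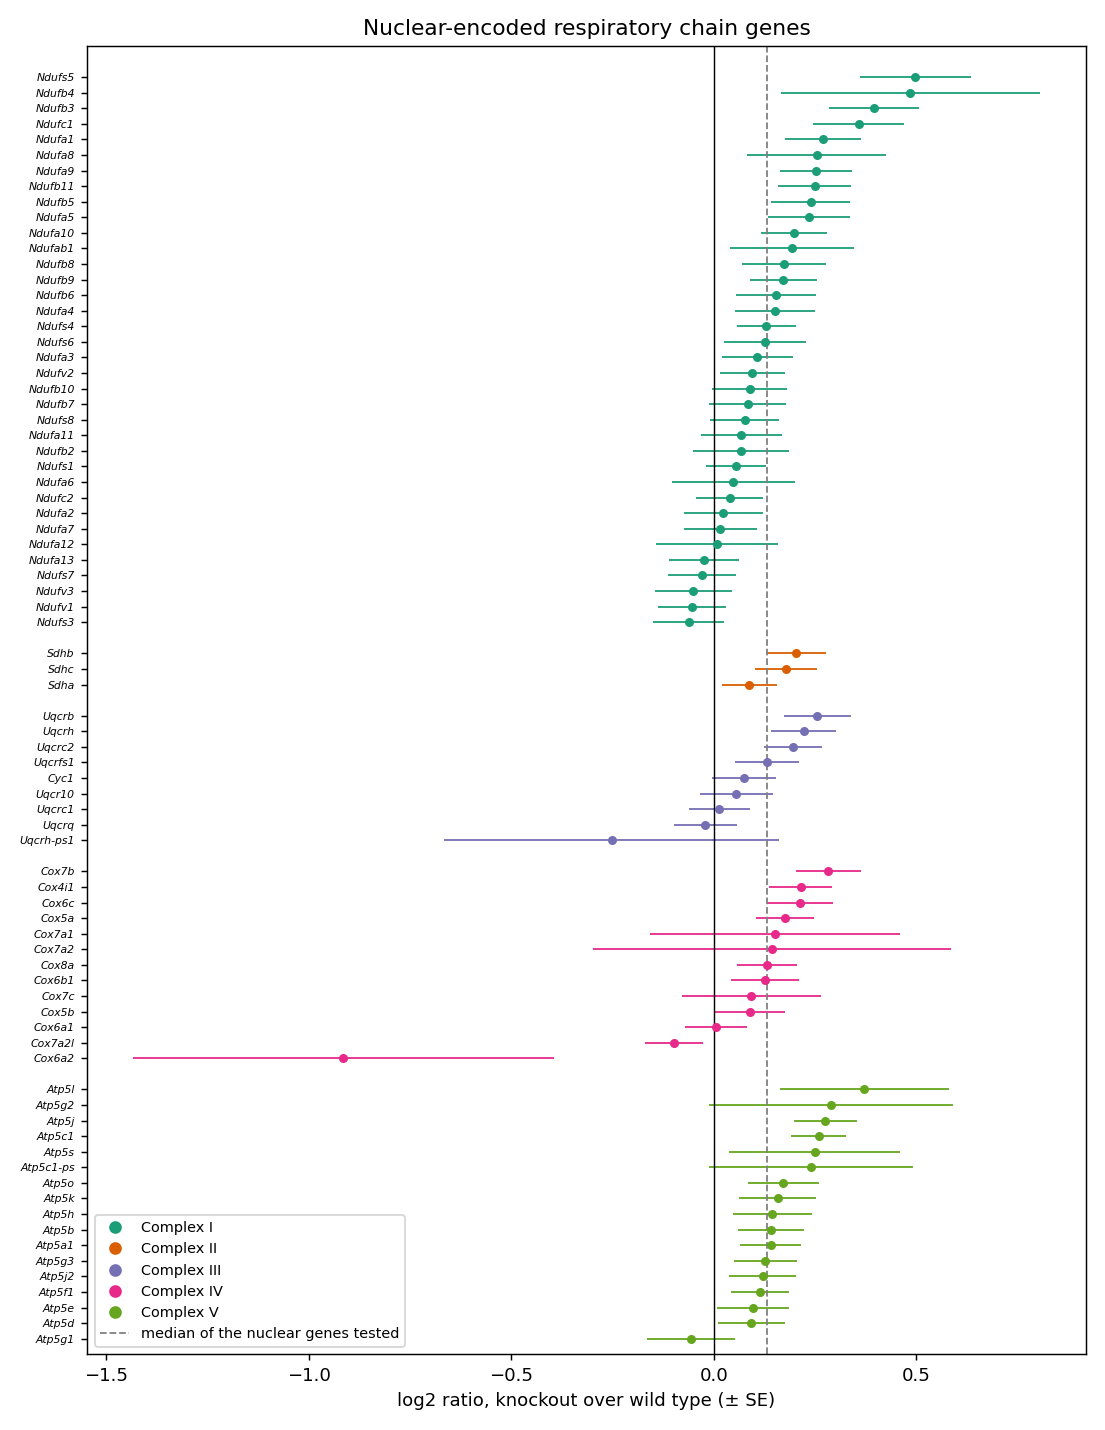
Log2 ratio of knockout over wild type with its SE (x axis) for 78 of the 79 nuclear genes tested, grouped by complex and ordered within it, with a dashed line at the median of the 79. Most points lie between 0 and 0.5, and the bars of the low genes Cox6a2, Cox7a2 and Uqcrh-ps1 are the widest.

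A single wild-type column weighed heavily in the nuclear genes. Wild-type column 1 was the lowest of the 4 columns in 64 of the 79 (81.0%), against 29.9% of all genes tested. Set against each gene's own mean on the log2 scale, the median deviation was 0.07 in knockout column 1 and 0.06 in knockout column 2, and it was -0.15 in wild-type column 1 and 0.02 in wild-type column 2. The median log2 ratio was 0.05 when wild-type column 1 was left out and 0.22 when wild-type column 2 was. After correction for GC content and length it was 0.07. The nuclear genes are short, with a median transcript length of 680 bases against 2370 over all genes tested. Together they took 0.520% and 0.513% of named reads in the knockout columns, and 0.462% and 0.517% in the wild-type columns, so by this share only wild-type column 1 stood apart. The column that stood low differed between the sets of genes. It was wild-type column 1 for most nuclear genes and wild-type column 2 for the 7 mitochondrial genes not wholly inside the copied stretch. For the 6 mitochondrial genes inside the stretch it was knockout column 1.

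**Figure D3:**
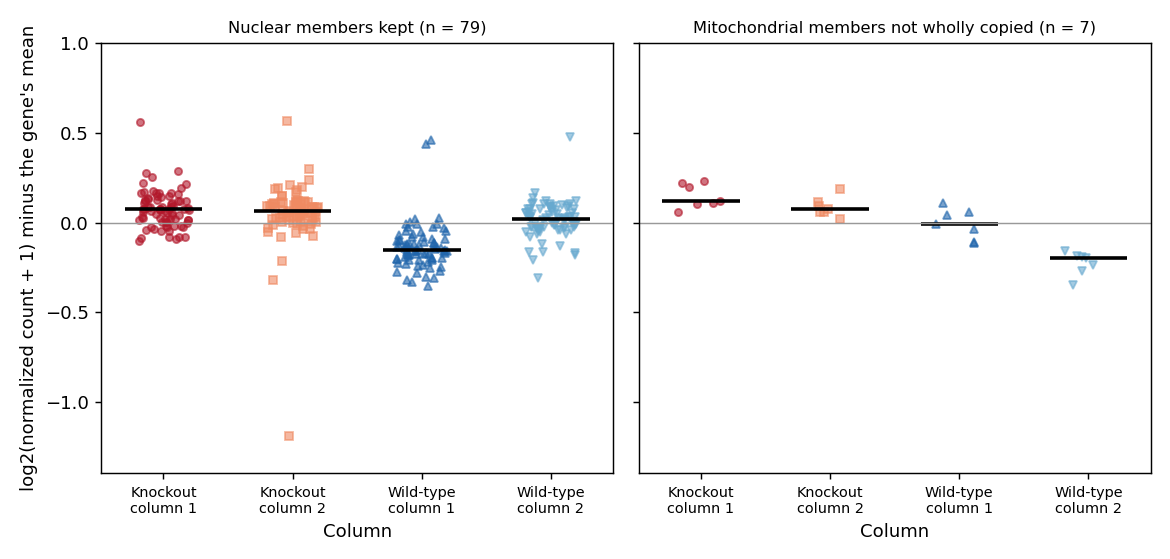
Deviation of log2(normalized count + 1) from each gene's mean (y axis) by column (x axis) for the 79 nuclear genes tested and the 7 mitochondrial genes not wholly inside the copied stretch, with black bars at the medians. Nuclear genes sit lowest in wild-type column 1 (median -0.15) and mitochondrial genes in wild-type column 2 (median -0.20).

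Complex I, the NADH dehydrogenase, had 38 nuclear genes by prefix, 37 of them tested. Of these, 31 had ratios above 0, 9 of them at an unadjusted p under 0.05, and the median was 0.11. Among all genes tested, 49.3% had ratios above 0 and 10.3% were higher at that p. Wild-type column 1 was the lowest column in 29 of the 37, against 29.9% of all genes tested. Ndufs5, an accessory subunit, had 642 and 607 normalized counts in the knockout columns, against 417 and 468 in the wild-type columns (log2 ratio 0.50, SE 0.14, adjusted p = 0.0682). Its groups did not overlap, but 35.6% of its 50-base windows also occur at another locus. Ndufb4, with the next highest ratio, had 82.0 and 128 in the knockout, against 69.8 and 76.4 in wild type (log2 ratio 0.49, SE 0.32, adjusted p = 0.43). Its excess came mainly from knockout column 2. Ndufs3, a core subunit of the peripheral arm, had the lowest ratio, with 2045 and 2035 in the knockout and 2043 and 2219 in wild type (log2 ratio -0.06, adjusted p = 0.74). Ndufv1, the NADH- and flavin-binding subunit, had 3243 and 3012 in the knockout, against 3078 and 3421 in wild type (log2 ratio -0.05, adjusted p = 0.762).

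Most nuclear core subunits of complex I, which bear its catalytic centres, had lower ratios than most other nuclear genes with its prefixes. This grouping was made after the values were seen and gets no test. The 6 nuclear core genes Ndufs1, Ndufs3, Ndufs7, Ndufs8, Ndufv1 and Ndufv2 had log2 ratios between -0.06 and 0.10, with a median of 0.01 and 3 above 0. The 30 others tested, mostly accessory subunits and with Ndufa4 among them, had ratios between -0.05 and 0.50, with a median of 0.15 and 28 above 0. The mitochondrially encoded core subunits ND1, ND2, ND4, ND5 and ND6, given above, had higher ratios than these nuclear core genes, between 0.13 and 0.39. ND3 and ND4L, which lie wholly inside the copied stretch, had lower ratios than these nuclear core genes, at -0.49 and -0.52. The mitochondrially encoded core subunits thus did not lie on 1 side of the nuclear ones. Wild-type column 1 was lowest in 3 of the 6 core genes and in 26 of the 30 others. The nuclear core genes are also longer, with a median transcript of 1012 bases against 611, and the part of length in this difference was not tested. The accessory subunit Ndufa7 was also level, with 3151 and 3203 in the knockout and 2877 and 3430 in wild type (log2 ratio 0.02, adjusted p = 0.943).

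Complex II, succinate dehydrogenase, has 4 subunits, and 3 were tested, all with ratios above 0 and with both knockout columns above both wild-type columns. Of all genes tested, 49.3% had ratios above 0 and 25.5% had both knockout columns above both wild-type columns. Wild-type column 1 was the lowest column in all 3, against 29.9% of all genes tested. Sdha, the flavoprotein, had 12774 and 12207 normalized counts in the knockout, against 11654 and 11835 in wild type (log2 ratio 0.09, SE 0.07, adjusted p = 0.498). Sdhb, the iron-sulfur subunit, had 7865 and 7654 in the knockout, against 6388 and 7110 in wild type (log2 ratio 0.20, SE 0.07, adjusted p = 0.146). Sdhc, a membrane anchor, had 7161 and 7149 in the knockout, against 5933 and 6735 in wild type (log2 ratio 0.18, SE 0.08, adjusted p = 0.212). Sdhd, the other membrane anchor of the same complex, had 5 and 1 reads in the knockout columns and 1 and 1 in the wild-type columns. Sdhd thus stood at 2.20 normalized counts per kb, where Sdhc stood at 8275, although Sdhd shares no 50-base window with another locus.

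Complex III, which passes electrons to cytochrome c, had 9 genes by prefix, all tested, 7 with ratios above 0 and a median of 0.08. Uqcrb had the highest ratio, with 3178 and 3155 in the knockout and 2518 and 2792 in wild type (log2 ratio 0.26, SE 0.08, adjusted p = 0.109). Uqcrh, the hinge protein and the most abundant of the complex per kb, had 5873 and 5455 in the knockout, against 4566 and 5157 in wild type (log2 ratio 0.22, SE 0.08, adjusted p = 0.142). Both genes had no overlap between the groups. Uqcrc1, a core protein, had 9470 and 8941 in the knockout, against 8561 and 9697 in wild type, a log2 ratio of 0.01 (adjusted p = 0.94). Uqcrq had 5261 and 5331 in the knockout, against 5037 and 5729 in wild type (log2 ratio -0.02, adjusted p = 0.915). The pseudogene row Uqcrh-ps1 was low, with 47.9 and 42.3 in the knockout and 68.2 and 42.4 in wild type (log2 ratio -0.25, adjusted p = 0.78).

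Complex IV, cytochrome c oxidase, had 15 nuclear genes, 13 of them tested, 11 with ratios above 0 and a median of 0.13. Several of its subunits exist as isoform pairs with known tissue preferences. Cox4i1, the ubiquitous form of subunit 4, had 19578 and 18054 normalized counts in the knockout, against 15112 and 17372 in wild type (log2 ratio 0.21, SE 0.08, adjusted p = 0.147). Cox4i2, known as the form of lung and of low oxygen, was under the threshold with 17.7 and 15.1 in the knockout and 17.8 and 26.9 in wild type. Cox6a1, the form of most tissues, had 11929 and 11910 in the knockout, against 11023 and 12793 in wild type (log2 ratio 0.01, adjusted p = 0.98). Cox6a2, the form of heart and skeletal muscle, had 47.9 and 16.6 in the knockout, against 53.5 and 55.2 in wild type (log2 ratio -0.91, SE 0.52, adjusted p = 0.352). Knockout column 2 was lowest for Cox6a2 and the groups did not overlap, but the SE is large beside the ratio. Cox6b1 had 10690 and 10618 in the knockout, against 8876 and 10732 in wild type (log2 ratio 0.13, adjusted p = 0.432), whereas the testis form Cox6b2 had 5.04 and 12.1 in the knockout and 26.0 and 14.1 in wild type and was not tested. In each pair the widely used form was the abundant one in every column, with Cox4i1 at 23529 and Cox4i2 at 26.6 normalized counts per kb, Cox6a1 at 20865 and Cox6a2 at 63.7, and Cox6b1 at 28896 and Cox6b2 at 32.9.

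Cox7b, a small membrane subunit, had the highest ratio of complex IV, with 8050 and 8113 in the knockout and 6134 and 7189 in wild type (log2 ratio 0.28, SE 0.08, adjusted p = 0.0737), without overlap. Cox7a2l, which encodes a factor that joins complexes III and IV, had 5715 and 5642 in the knockout, against 5892 and 6271 in wild type (log2 ratio -0.10, adjusted p = 0.48). Cox7a2l is 1 of the 3 tested nuclear genes with both knockout columns below both wild-type columns. Cox7a1, the heart and muscle form, had 85.7 and 84.6 in the knockout and 71.4 and 82.0 in wild type (log2 ratio 0.15, adjusted p = 0.829). Cox7a2, the form of most other tissues, had only 46.6 and 37.8 in the knockout and 40.6 and 35.4 in wild type (log2 ratio 0.14, adjusted p = 0.892). Among these isoform pairs only here was the widely used form the less abundant, at 60.8 normalized counts per kb for Cox7a2 and 206 for Cox7a1, and Cox7a2 shares no 50-base window with another locus. Cox8a had 9055 and 9002 in the knockout, against 7726 and 8789 in wild type (log2 ratio 0.13, adjusted p = 0.355), and Cox8b and Cox8c were not analysed here. Ndufa4 had 3047 and 3157 in the knockout, against 2497 and 3119 in wild type (log2 ratio 0.15, adjusted p = 0.42), and its paralog Ndufa4l2, known as a gene induced by low oxygen, was at 0 in all 4 columns, which allows up to 3.78 and 4.53 normalized counts in the knockout columns and 4.87 and 4.24 in the wild-type columns.

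Complex V, ATP synthase, had 17 genes, all tested, 16 with ratios above 0 and a median of 0.14. Atp5c1, which encodes the central rotor subunit gamma, had the smallest p-value of the nuclear genes. It had 8336 and 8137 normalized counts in the knockout, against 6838 and 6925 in wild type (log2 ratio 0.26, SE 0.07, adjusted p = 0.0557). Atp5j, subunit F6 of the stalk, had 5951 and 5526 in the knockout, against 4500 and 4986 in wild type (log2 ratio 0.28, SE 0.08, adjusted p = 0.0741). In both genes the groups did not overlap, and the wild-type columns of Atp5c1 lay close together. Atp5b, the catalytic beta subunit, had 58567 and 55552 in the knockout, against 48135 and 55573 in wild type (log2 ratio 0.14, adjusted p = 0.357). Atp5a1, the alpha subunit, had 48834 and 45133 in the knockout, against 40523 and 44764 in wild type (log2 ratio 0.14, adjusted p = 0.332). Atp5b reached 28422 normalized counts per kb, the highest of the complex. Atp5d, subunit delta, was next lowest in ratio after Atp5g1, with 3183 and 3371 in the knockout and 2929 and 3220 in wild type (log2 ratio 0.09, adjusted p = 0.566).

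The membrane ring of ATP synthase is built from identical copies of subunit c, which 3 genes encode. Atp5g3 had 5836 and 6168 normalized counts in the knockout, against 5155 and 5848 in wild type (log2 ratio 0.13, adjusted p = 0.393). Atp5g1 had 1204 and 1321 in the knockout, against 1214 and 1416 in wild type (log2 ratio -0.06, adjusted p = 0.821). Atp5g2 had 99.6 and 95.2 in the knockout, against 89.2 and 70.7 in wild type (log2 ratio 0.29, adjusted p = 0.635). Per kb they stood at 8056, 1865 and 201 normalized counts, in the order Atp5g3, Atp5g1, Atp5g2. The order of levels is uncertain for the last, because 100% of the windows of Atp5g2 and 56.2% of those of Atp5g1 also occur at another locus.

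By their medians, the nuclear genes that share most of their sequence with other loci had low levels and partly shared genes did not. Of the 83 nuclear genes, 34 shared at least 1 window of 50 bases with a transcript of another locus. The 6 genes sharing at least 50% of their windows, Atp5g2, Atp5l, Atp5g1, Ndufa12, Cox7c and Atp5h, had a median of 653 normalized counts per kb over the 4 columns. The 28 with some but under 50% shared windows had a median of 5453, Uqcrb at 5441 and Cox5b at 6744 among them. The 49 with no shared window had a median of 3997, and they include the 4 genes too low to be tested. Atp5l, a membrane subunit that shares windows with 13 other genes, had 200 and 234 normalized counts in the knockout, against 161 and 174 in wild type (log2 ratio 0.37, SE 0.21, adjusted p = 0.349). Levels of such genes may not be levels of the transcript alone. Leaving out genes with 30% or more shared windows and the pseudogene rows, an alternative chosen after the data were seen, left 65 tested nuclear genes with a median log2 ratio of 0.13 and 0 called.

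**Figure D4:**
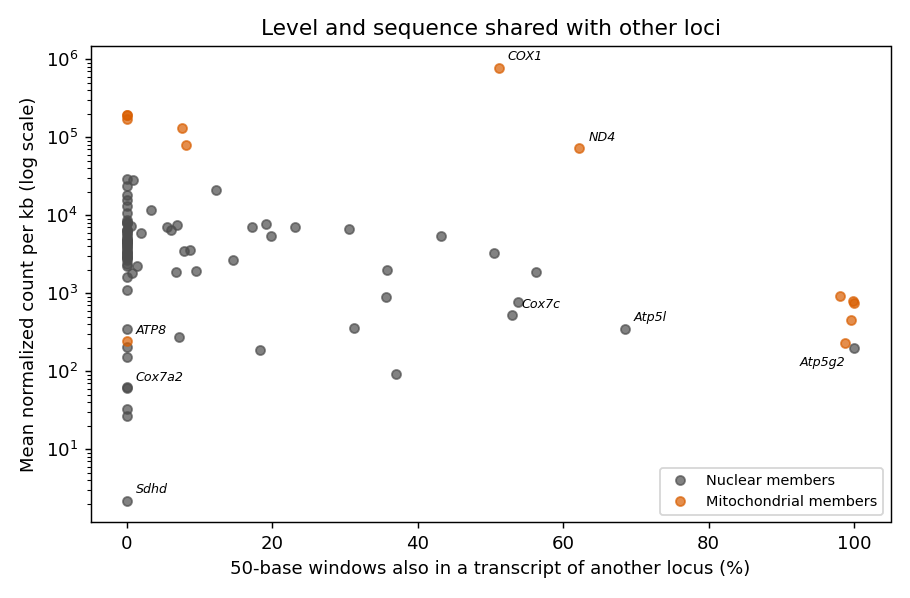
Mean normalized count per kb on a log scale (y axis) against the percent of a transcript's 50-base windows found in a transcript of another locus (x axis), 1 point per gene, without Ndufa4l2, which is at 0. The mitochondrial genes at 98.0% to 100% lie under 1000 normalized counts per kb, and ATP8, Sdhd and Cox7a2 are among those low with 0% shared.

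Per kb, the nuclear genes of complex IV reached the highest level (Cox6b1, 28896 normalized counts) and those of complex V the highest median (7054). The medians were 2948 in complex I, 5265 in complex II, 5058 in complex III and 6744 in complex IV. In complex I, 32 of 38 genes stood above 1000 normalized counts per kb, and Ndufa4 at 6538 and Ndufa7 at 5995 were among the most abundant.

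Promoters of respiratory chain genes are known to be bound by nuclear respiratory factor 1 (NRF1), by the ETS factor GABP and by YY1. The letters of these motifs were searched after the ratios above were seen. A link between a motif and a ratio was not tested. Promoters of 250 bases before to 50 bases after the start site were available from RefSeq (GRCm38.p6) for 66 nuclear genes. The NRF1 motif, the run of capitals in each window below, reads the same on both strands and occurred in 5 of the 66 (7.58%), against 2.37% of the 9983 tested genes with a promoter. The windows around 4 of these matches are printed to show the motif, in capitals, in its place in promoters of complexes I, IV and V. Each is on the strand of its gene, 5′ to 3′: Atp5k at chr5:108434425-108434464 (minus strand), Atp5g2 at chr15:102671065-102671104 (minus), Ndufa11 at chr17:56717687-56717726 (plus) and Cox6a1 at chr5:115349096-115349135 (minus).
Atp5k: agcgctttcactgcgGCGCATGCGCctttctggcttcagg
Atp5g2: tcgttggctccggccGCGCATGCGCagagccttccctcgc
Ndufa11: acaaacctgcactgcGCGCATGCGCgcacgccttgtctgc
Cox6a1: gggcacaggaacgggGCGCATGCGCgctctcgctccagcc
The ETS letters CCGGAAGT, on either strand, occurred in 4 of the 66 (6.06%), against 9.39% of tested genes. The YY1 letters AAGATGGC, on either strand, occurred in 10 (15.2%), against 5.40% of tested genes, 7 of them among the 33 promoters of complex I and 3 among the 15 of complex V. No motif contains another, and at least 1 of the 3 occurred in 19 of the 66 (28.8%), against 16.3%. A match describes these letters only. Of the genes printed, Cox6a1 had a log2 ratio of 0.01 and Atp5k, with 2489 and 2474 normalized counts in the knockout and 2030 and 2434 in wild type, one of 0.16 (adjusted p = 0.378).

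Genes that serve the chain without being its subunits were counted from lists of 168 genes, of which 160 were tested. Of these, 5 rose, 0 fell and 155 did not pass, where 1.67% of all genes tested were called higher and 1.24% lower. Of the 160 ratios 112 were above 0, against 49.3% of all genes tested, and their median was 0.08. Ucp2 encodes an inner-membrane carrier of the uncoupling protein family that is abundant in immune cells. It had 45740 and 44613 normalized counts in the knockout, against 32892 and 34617 in wild type (log2 ratio 0.42, SE 0.07, adjusted p = 0.00772). Cycs, cytochrome c itself, had 787 and 697 in the knockout, against 510 and 518 in wild type (log2 ratio 0.53, SE 0.13, adjusted p = 0.0433). Both genes had knockout columns well above the wild-type columns, which lay close together. Cox17, a copper chaperone for complex IV, had 6260 and 5913 in the knockout, against 4844 and 5004 in wild type (log2 ratio 0.31, SE 0.07, adjusted p = 0.0397). Coq10b, a coenzyme Q-binding protein, had 3310 and 3444 in the knockout, against 2694 and 2716 in wild type (log2 ratio 0.32, SE 0.08, adjusted p = 0.0424). Hspd1, the mitochondrial chaperonin, had 12348 and 11809 in the knockout, against 9386 and 9984 in wild type (log2 ratio 0.32, SE 0.07, adjusted p = 0.0291). In none of the 5 did the groups overlap. All 5 calls were lost when wild-type column 1 or knockout column 1 was left out (Ucp2 at adjusted p = 0.0611 and 0.133), all but that of Ucp2 when knockout column 2 was, and those of Cycs and Coq10b when wild-type column 2 was. Those of Cycs, Cox17 and Coq10b were also lost after correction for GC content and length, without a filter, and with columns scaled to the sums of all genes but the mitochondrial ones.

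In the lists of assembly factors no gene passed apart from Cox17. The 6 ATP synthase assembly and inhibitor genes all had ratios above 0 (median 0.23), from 0.07 for Atpif1, the inhibitor of ATP hydrolysis, to 0.42 for Atpaf1. The 15 complex I assembly genes had a median of 0.06, from -0.43 (Nubpl) to 0.34 (Ndufaf5), and the 4 of complex II one of 0.16, from -0.05 (Sdhaf1) to 0.29 (Sdhaf3). The 6 of complex III had a median of 0.12, and Lyrm7, the highest, had 84.5 and 81.6 normalized counts in the knockout, against 55.2 and 39.6 in wild type (log2 ratio 0.82, SE 0.36, adjusted p = 0.226). The 22 of complex IV had a median of 0.09, from -0.23 (Cmc2) to 0.32 (Cox16). In the list of cytochrome c and coenzyme Q, Coq9 had the lowest ratio, with 1190 and 1147 in the knockout and 1540 and 1370 in wild type (log2 ratio -0.31, adjusted p = 0.11).

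The remaining lists cover the expression of mitochondrial DNA, the upkeep of the organelle and the regulators of its genes. The 31 genes of mitochondrial gene expression had a median of 0.03, from -0.33 for the transcription termination factor-like Mterf2 to 0.36 for Tfb1m. By limma 0 passed, and 4 were higher and 2 lower at an unadjusted p under 0.05. Of all genes tested, 10.3% were higher and 9.45% lower at that level. The 37 genes of mitochondrial shape and quality control had a median of 0.09, with Hspe1, the partner of Hspd1, highest at 0.33 (adjusted p = 0.0703, and 0.0266 without wild-type column 2) and the fusion protein Mfn2 lowest at -0.19 (adjusted p = 0.159). Among 12 tested genes of other electron entry and proton leak the lowest was Dhodh (-0.07). The 12 tested transcriptional regulators had a median of -0.01, and Gabpb2 was lowest at -0.13. Myc was highest, with 687 and 500 normalized counts in the knockout, against 286 and 478 in wild type (log2 ratio 0.66, SE 0.21, adjusted p = 0.109), and wild-type column 1 stood well below the other 3 columns. For Myc the log2 ratio was 0.29 (adjusted p = 0.567) without that column and 1.03 (adjusted p = 0.0335) without wild-type column 2.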

How the data were processed

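Bulk mRNA libraries were directional per the labels' protocols, and mm10 and StringTie 1.3.044 are listed per the submitters' processing notes. The authors deposited 1 table of normalized counts (a normalized signal per gene). Every value is a whole number of reads times 1 step per column (100% whole within 0.01 reads), with 1 read worth 1.26 to 1.62. How reads were counted and scaled is not given in the sources used here. Of low counts, 69.0% to 71.4% were even, so mates may be counted singly. The 1 row without a gene name (0.0272% to 0.0366% of a column) was left out.

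The 12872 genes that reached 20 reads in any column were tested on log2(normalized count + 1) by limma 3.58.1 with an intensity trend (R 4.3.3). Adjustment was by Benjamini-Hochberg over all of them, and a gene was called at an adjusted p under 0.05. Each log2 ratio is the knockout mean minus the wild-type mean on this scale, so changes of low genes are understated. Residual degrees of freedom were 2 and the prior added 12.2. The columns of a genotype differed beyond counting noise (chi-square per gene 12.7 in the knockout and 19.4 in wild type, or 6.35 and 9.68 at 2 reads per fragment). Alternatives included edgeR 4.0.16 and DESeq2 1.42.0 on the recovered reads, other scalings, filters and pseudocounts, correction for GC content and length within each column (12726 genes had both), the column number as a block, and leaving out single columns. Counting intervals and floors (3 reads) cover counting error only. Windows of 50 bases and gene positions come from GENCODE vM21 (mm10), with 1 transcript per gene. Entrez identifiers matched for 97.2% of genes.

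The members and lists were chosen with earlier results of these data known. Named genes were all mitochondrial members, the 3 highest per kb and the 2 highest and 2 lowest ratios per complex, isoform sets, called genes and the extremes of each list. Atp5c1, Atp5j, genes called by another setting, Sdhd, the core subunits of complex I and genes with shared windows were named after their values were seen. The values of 1 gene that the rule takes are not reported here. The other cell type markers were neutrophil (4 of 7 in the table, summing to 94.6 and 78.6 in the knockout and 82.8 and 122 in wild type), T cell (Cd3d and Cd8a at 0), B cell and erythroid, with at most 53.7 normalized counts in any column for each of the last 3. Of 6 classical activation markers 2 were called higher, against 1.67% of all genes tested.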

Additional observations from a re-analysis of the deposited data

How the results depend on the processing

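Log2 ratios of about 0.1 to 0.3 rest here on 2 columns per genotype, and a single column decides many calls. DESeq2 called 3 nuclear and 3 mitochondrial genes higher (CYTB, ND1 and ND2, the 3 that edgeR also called) and 341 genes in all, against 0, 1 and 215 in the main test. Scaling to sums without the mitochondrial genes gave 0 mitochondrial, 2 pathway and 123 genes in all called higher and 279 lower (main test 1, 5, 215 and 160). Without a filter the numbers were 0, 2, 122 and 100, and after correction for GC content and length they were 0, 2, 105 and 75, with the median of the mitochondrial genes turned to -0.16. The column numbers do not establish a pairing. Across the genes tested, the difference of column 1 from column 2 in wild type had a correlation of -0.03 with that in the knockout. A block on the number called 4 nuclear genes (Atp5c1, Atp5j, Cox7b and Ndufb3) and 2 mitochondrial genes higher, with 322 genes higher and 280 lower in all. It also called Hspe1 (adjusted p = 0.0271) and Myc (0.0234) higher, the last with the correction too (0.00073). The block together with that correction called 0 mitochondrial genes higher and 1 lower (ND3), and 5 pathway genes higher and 1 lower. In all it called 298 genes higher and 225 lower, and the mitochondrial median was -0.16. Leaving out 1 column in turn gave 0 to 7 nuclear genes and 0 to 1 mitochondrial genes called higher, 0 to 6 pathway genes, 14 to 355 genes in all higher and 3 to 265 lower. The nuclear median ranged from 0.0503 to 0.22 and the mitochondrial one from -0.0268 to 0.22. The cause of these shifts was not tested. Restricted to the 7 genes not wholly inside the copied stretch, an alternative chosen after the data were seen, the mitochondrial median was 0.19 with 1 called. Over 69 named genes and 1000 values, 950 kept their side of the threshold, 35 lost and 15 gained a call. Of the ratios, 44 without a call and 0 with one changed sign. Sdhd, Cox4i2, Cox6b2 and Ndufa4l2 were under 20 reads in every column, and the cause of their low counts was not tested.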
